A study of Mus musculus with 6 samples.

Results

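Smooth muscle actin and the proteins that sit on smooth muscle actin filaments were followed in primary mouse myoblasts, cultured precursors of skeletal muscle fibres, after a short hairpin RNA (shRNA) against the long non-coding RNA LncMyoD. The set holds 10 genes chosen by name: Acta2, Tagln, Tagln2, Cnn1, Cnn2, Cnn3, Smtn, Myl9, Mylk and Vcl. Every probe set whose platform annotation gives exactly 1 of these symbols was taken, which came to 22 of the 45101 probe sets on the array, for 10 of the 18194 genes that have a probe set named to them alone. Of the 10 genes, 5 were read by 1 probe set each, and Cnn3 had the most, 6.

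Total RNA was hybridised to 6 Affymetrix arrays that cover the mouse genome, 3 labelled control and 3 labelled LncMyoD shRNA. Every sample is labelled as 21 days old, and the labels say that the shRNA sequences were carried in a Tet-pLKO-puro vector and brought into the myoblasts by lentivirus made in 293T cells. They name neither the mouse strain, the inducer of the vector nor what the control cells received, and they describe a growth and a differentiation medium without saying which was used for the profiled cells. They call the replicates biological but name no separate animals or cultures, so the p-values below reflect array-to-array spread only, and this spread may be technical. No probe set was matched to LncMyoD, so the depth of the knockdown is not analysed here.

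Acta2, Tagln, Cnn1 and Smtn are widely used markers of contractile smooth muscle, and Acta2 and Tagln are also expressed for a time in young skeletal muscle. Acta2 encodes the smooth muscle alpha actin of the filament itself, and transgelins and calponins are related actin-binding proteins that share a calponin homology domain. Contraction of this apparatus is switched on when myosin light chain kinase, the product of Mylk, phosphorylates the regulatory light chain encoded by Myl9, and vinculin ties actin filaments to the membrane at focal adhesions. Many of these genes are known targets of serum response factor (SRF), which binds a DNA element called the CArG box. SRF is helped by the myocardin-related factors (MRTFs), which are kept out of the nucleus by unpolymerised actin.

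The promoters were read from RefSeq on the mouse build GRCm38.p6, as windows from 250 bases before to 50 bases after the annotated start of each gene, and 9 of the 10 genes had a window. Tagln had none. A CArG box is a pair of C, then 6 letters that are each A or T, then a pair of G. It was searched exactly and with up to 1 other letter among the 6, and it reads the same way on both strands. The exact form lay in 1.63% of all 32851 windows and the relaxed form in 9.98%. Among the 9 genes, 3 (Cnn2, Myl9 and Vcl) held the exact form, and Acta2 joined them with the relaxed form. The MCAT element bound by TEAD factors, CATTCC on either strand, lay in 14.7% of windows and in those of 5 of these genes (Acta2, Tagln2, Smtn, Mylk and Vcl). No CArG match overlapped an MCAT match. The stretches below show every CArG match and, as an example of MCAT elements, the window part of Tagln2, which had the largest change among these genes and no CArG match. The MCAT elements of Acta2, Smtn, Mylk and Vcl are not shown. Capitals mark the CArG matches and, in Tagln2, the MCAT elements, and all are written 5′ to 3′ along the gene's own strand. They come from chr19:34255383-34255472 (minus strand, Acta2), chr10:79988529-79988568 (plus strand, Cnn2), chr2:156775288-156775389 (plus strand, Myl9), chr14:20929156-20929195 (plus strand, Vcl) and chr1:172500113-172500186 (plus strand, Tagln2).
Acta2: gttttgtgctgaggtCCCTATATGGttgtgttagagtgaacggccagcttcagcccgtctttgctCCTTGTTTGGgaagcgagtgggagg
Cnn2: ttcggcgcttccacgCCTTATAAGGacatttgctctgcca
Myl9: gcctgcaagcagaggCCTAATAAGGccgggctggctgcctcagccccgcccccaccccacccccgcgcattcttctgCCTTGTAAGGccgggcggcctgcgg
Vcl: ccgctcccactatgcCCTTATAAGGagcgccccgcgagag
Tagln2: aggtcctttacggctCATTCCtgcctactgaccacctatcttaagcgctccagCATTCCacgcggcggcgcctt
The CArG matches of Acta2 lie 84 to 75 and 34 to 25 bases before the annotated start. That of Cnn2 lies 56 to 47 bases before it, that of Vcl 227 to 218, and those of Myl9 161 to 152 and 99 to 90. Cnn2 and Vcl carry the same letters, CCTTATAAGG. A match describes these letters, and no binding was measured here.

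The question asked of the arrays was whether these genes differed in level between shRNA and control cells. The clearest changes were in the transgelins, and they ran opposite ways: Tagln fell 1.68-fold and Tagln2 rose 2.54-fold. Smtn fell 1.37-fold and Myl9 1.11-fold, while the brightest probe sets of Acta2, Cnn2, Cnn3, Mylk and Vcl did not pass the test. All values below are normalized log2 signals as deposited, so a difference of 1 is a doubling. The test was limma's moderated test over the 27022 probe sets that remained after the dimmest 40% were left out, with Benjamini-Hochberg adjustment over all of them and a threshold of 0.05.

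Of the 22 probe sets, 20 were bright enough to be tested. There were 2 that rose, both of Tagln2, and 4 that fell, 1 each of Tagln, Smtn, Myl9 and Acta2, and 14 did not pass. Over all tested probe sets 53.9% passed, 30.4% as higher and 23.5% as lower. The arrays of the groups did not overlap in 8 of the 20, against 59.5% of all tested probe sets. The median change was -0.02 in the set and 0.02 over all tested probe sets, and the median size of a change was 0.063 against 0.21. By the probe set that stands for each gene, its brightest, 1 gene rose, 3 fell, 5 did not pass and Cnn1 was too dim to be tested. Over all genes tested, 35.7% of 12365 rose and 22.8% fell.

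**Figure D1:**
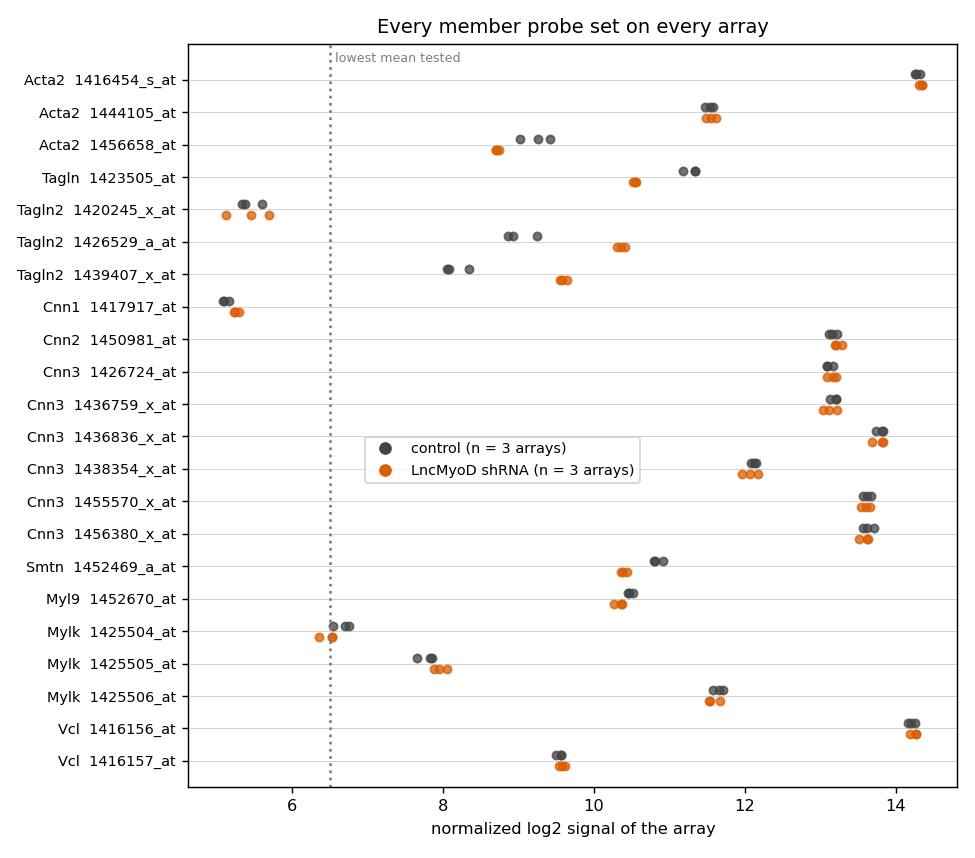
Normalized log2 signal (x axis) of each of the 22 probe sets (y axis) on each array, with control arrays in grey and LncMyoD shRNA arrays in orange (n = 3 each) and a dotted line at the lowest mean tested, 6.50. The orange points lie to the right of the grey ones for the brighter probe sets of Tagln2, to the left for Tagln, Smtn and the dimmest probe set of Acta2, and among them for most others.

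Acta2 itself was read by 3 probe sets. The brightest, 1416454_s_at, stood at 14.32, 14.26 and 14.25 on the control arrays and at 14.31, 14.34 and 14.35 on the shRNA arrays. The groups overlapped, and the change of 0.059 (SE 0.032, 95% interval -0.011 to 0.13) did not pass (adjusted p = 0.145). Its suffix marks, in Affymetrix's naming, probes that can also match transcripts of other genes, and actin genes are close copies of each other. The second probe set, 1444105_at, gave 11.57, 11.54 and 11.47 in controls and 11.48, 11.61 and 11.55 in shRNA samples, again overlapping, with a change of 0.021 (SE 0.048, adjusted p = 0.745).

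The dimmest Acta2 probe set, 1456658_at, read differently. Control arrays gave 9.02, 9.42 and 9.26, and shRNA arrays 8.70, 8.74 and 8.70. Every shRNA array was below every control array, and the change was -0.52 (SE 0.094, 95% interval -0.72 to -0.32), a 1.43-fold fall (adjusted p = 0.000454). The 3 probe sets of this gene therefore did not give a common direction. Which part of the transcript each of them reads was not examined here.

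Among the other actins, measured here on the same arrays, the brightest probe sets of the cytoplasmic genes Actb and Actg1 changed by -0.0068 and -0.0081 and did not pass. A dimmer Actb probe set, 1436722_a_at, rose by 0.17 (adjusted p = 0.00342). The cardiac actin Actc1 fell by 0.30 (SE 0.034, adjusted p = 8.06e-06). The smooth muscle gamma actin Actg2 rose by 0.44 (SE 0.090, adjusted p = 0.00114), from 8.16, 7.95 and 7.97 to 8.42, 8.47 and 8.51. Skeletal Acta1 changed by -0.088 (adjusted p = 0.0386), a call that was lost in 9 of 15 other settings of the analysis. By the brightest probe set of each gene, 1 of the 5 rose, 2 fell and 2 did not pass, where 35.7% of all genes tested rose and 22.8% fell.

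Tagln (SM22 alpha), an early marker of smooth muscle that binds and bundles actin filaments, was read by 1 probe set, 1423505_at. It stood at 11.34, 11.34 and 11.18 on the control arrays and at 10.54, 10.56 and 10.52 on the shRNA arrays. The lowest control array was well above the highest shRNA array. The mean went from 11.28 ± 0.093 (SD, n = 3) to 10.54 ± 0.021, a fall of 0.75 (SE 0.053, 95% interval -0.86 to -0.63; adjusted p = 1.30e-07). Among decreases it ranked 414 of 12365 genes.

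Tagln2 encodes a related transgelin that also binds actin. Its main probe set, 1426529_a_at, gave 9.25, 8.92 and 8.86 in controls and 10.30, 10.36 and 10.41 in shRNA samples. All shRNA arrays were higher by more than 1 log2 unit than any control array, and the mean rose from 9.01 ± 0.21 to 10.36 ± 0.057. The rise was 1.35 (SE 0.090, 95% interval 1.15 to 1.54; adjusted p = 7.75e-08), which ranked 91 of 12365 genes among increases.

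The second Tagln2 probe set, 1439407_x_at, stood at 8.34, 8.05 and 8.08 in controls and at 9.57, 9.64 and 9.55 in shRNA samples. It rose 2.70-fold, by 1.43 (SE 0.087, 95% interval 1.24 to 1.62; adjusted p = 3.43e-08), so the separate probe sets gave like sizes. Its suffix _x_at, however, marks probes able to match other transcripts. The third, 1420245_x_at, lay between 5.13 and 5.69 on all arrays with the groups overlapping, and it was too dim to be tested.

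The difference between the log2 signals of Tagln and Tagln2 within an array was 2.27 ± 0.17 in controls and 0.18 ± 0.067 in shRNA samples. The ratio of these genes thus moved by 2.09 on the log2 scale, 4.27-fold, toward Tagln2, a quantity that does not change when a whole array is shifted up or down. A two-sided exact permutation test, with 20 ways to assign the arrays, gave p = 0.1, the smallest that this design allows, and 0.4 after adjustment over 4 pairs of related genes. That test therefore could not pass 0.05. In the linear sense neither probe set says how much more of one transcript than of the other was present, since probe sets differ in brightness per molecule.

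**Figure D2:**
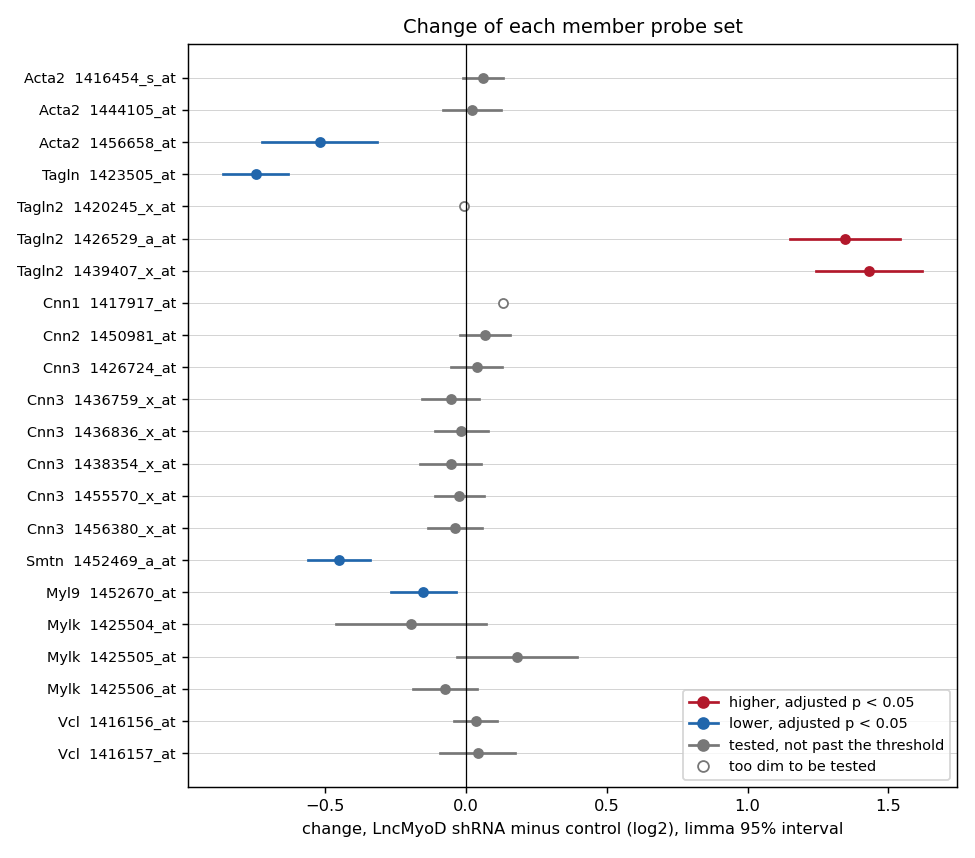
Change in log2 signal, LncMyoD shRNA minus control (x axis), of each of the 22 probe sets (y axis), with limma's 95% intervals for the 20 tested and open circles for the 2 too dim to be tested. The intervals of Tagln2 (1.15 to 1.54 and 1.24 to 1.62) and Tagln (-0.86 to -0.63) lie far apart on opposite sides of 0, and those of Cnn2, Cnn3 and Vcl all include 0.

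Calponins bind actin and tropomyosin and, in smooth muscle, hold down the myosin ATPase. Cnn1, the isoform typical of contractile smooth muscle, had 1 probe set, 1417917_at, at 5.09, 5.17 and 5.10 in controls and 5.24, 5.29 and 5.23 in shRNA samples. Those levels lie among the dimmest 40% of the array and were not tested, and without a detection call a signal this low cannot be told from background. The shRNA arrays were all above the control arrays, by a mean of 0.13, and in a fit without the filter the adjusted p was 0.413.

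Cnn2 and Cnn3, the calponins found in many cell types outside smooth muscle, were bright. Cnn2 stood at 13.22, 13.11 and 13.15 in controls and 13.19, 13.20 and 13.29 in shRNA samples, and its change of 0.066 (SE 0.041, 95% interval -0.022 to 0.15) did not pass (adjusted p = 0.191). Cnn3 was read at 13.17, 13.09 and 13.08 in controls and 13.08, 13.17 and 13.20 in shRNA samples by its main probe set, 1426724_at, with a change of 0.037 (SE 0.041, adjusted p = 0.477). Its other probe sets, 5 with the suffix _x_at that marks probes able to match other transcripts, gave small changes as well. Over all 6 the changes ran from -0.055 to 0.037, the adjusted p from 0.346 to 0.763 and the bounds of the 95% intervals from -0.16 to 0.13.

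The within-array difference between Cnn2 and Cnn3 changed by 0.029, with an exact permutation p of 0.4, and 0.5 after adjustment over the 4 pairs. The 2 pairs with Cnn1 were computed as well, but give no ratio, since its signal cannot be told from background.

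Smtn encodes smoothelin, an actin-associated protein of contractile smooth muscle. Its probe set 1452469_a_at gave 10.81, 10.80 and 10.91 in controls and 10.43, 10.38 and 10.35 in shRNA samples. The groups were clearly apart, and the mean fell from 10.84 ± 0.060 to 10.39 ± 0.041. This was a fall of 0.45 (SE 0.052, 95% interval -0.56 to -0.34; adjusted p = 9.10e-06), after Tagln and the dimmest Acta2 probe set the next in size among the decreases here.

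Myl9, the regulatory light chain that Mylk phosphorylates, fell less. Its probe set 1452670_at stood at 10.46, 10.52 and 10.45 in controls and 10.26, 10.37 and 10.35 in shRNA samples. The groups did not overlap but lay close together, and the change was -0.15 (SE 0.054, 95% interval -0.27 to -0.037; adjusted p = 0.0283). The call was lost without control replicate 2 (-0.13, adjusted p = 0.111) and without shRNA replicate 1 (-0.12, adjusted p = 0.137).

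Mylk, the kinase, was read by 3 probe sets, none of which passed. The brightest, 1425506_at, gave 11.57, 11.71 and 11.66 in controls and 11.52, 11.53 and 11.67 in shRNA samples, a change of -0.075 (SE 0.052, 95% interval -0.19 to 0.038; adjusted p = 0.246). The dimmer ones pointed opposite ways without overlap of their arrays. Probe set 1425505_at went from 7.85, 7.83 and 7.65 to 8.05, 7.94 and 7.88 (0.18, SE 0.099, adjusted p = 0.139), and 1425504_at from 6.75, 6.54 and 6.70 to 6.53, 6.35 and 6.53 (-0.19, SE 0.12, adjusted p = 0.203). Their intervals, -0.032 to 0.40 and -0.46 to 0.072, are wide.

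Vcl, vinculin, was among the brightest. Probe set 1416156_at stood at 14.20, 14.16 and 14.25 in controls and 14.19, 14.26 and 14.26 in shRNA samples, with a change of 0.033 (SE 0.035, 95% interval -0.043 to 0.11; adjusted p = 0.450). Probe set 1416157_at gave 9.56, 9.56 and 9.50 and then 9.58, 9.62 and 9.54, a change of 0.041 (SE 0.061, 95% interval -0.091 to 0.17; adjusted p = 0.601). In both, the groups overlapped.

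The probe sets that did not pass were mostly bright ones with narrow intervals. There were 11 with a mean above 11, whose changes ran from -0.075 to 0.066 and whose 95% intervals stayed between -0.19 and 0.15. The size of changes over the whole array varied with brightness. Its median was 0.23 for means up to 9, where 42.2% passed, 0.26 from 9 to 11, where 67.3% passed, 0.17 from 11 to 13, where 63.6% passed, and 0.072 over the 1522 probe sets from 13 to 15, where 40.6% passed. The part of signal brightness in the small changes of Acta2, Cnn2, Cnn3 and Vcl was not tested.

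**Figure D3:**
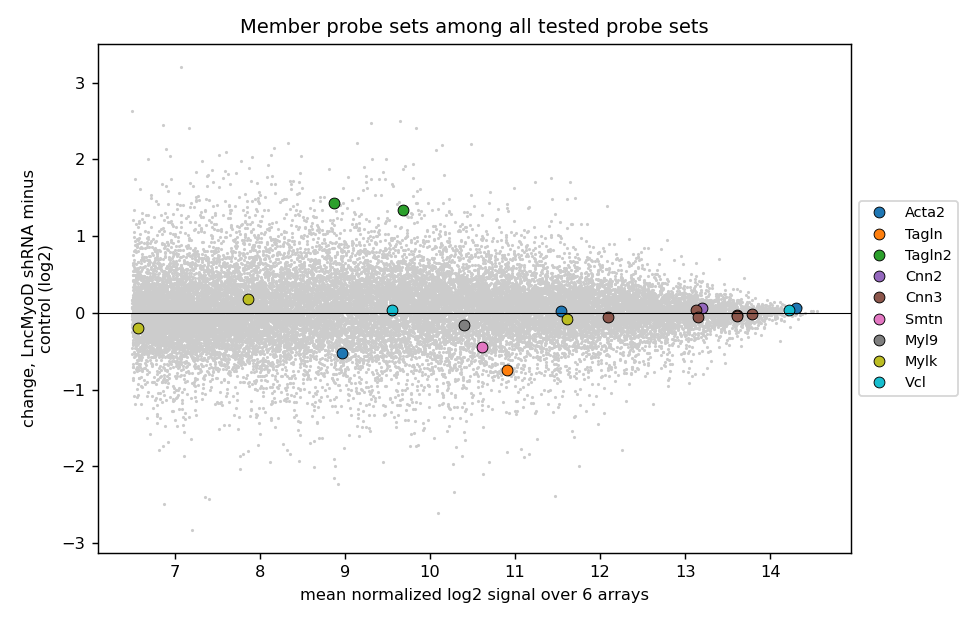
Change in log2 signal, LncMyoD shRNA minus control (y axis), against the mean log2 signal over 6 arrays (x axis) for all 27022 tested probe sets (grey), with the 20 tested probe sets of the 10 genes coloured by gene. The grey cloud narrows toward the bright end, where the main probe sets of Acta2 and Vcl and those of Cnn2 and Cnn3 lie close to 0, while Tagln2 stands above and Tagln below the middle of the cloud.

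Set beside the promoters shown above, 1 of the 4 genes with a CArG match changed in its main probe set: Myl9 fell, and Acta2, Cnn2 and Vcl did not pass the test. Among those with an MCAT element, Tagln2 rose, Smtn fell, and Mylk, Acta2 and Vcl did not pass. Over all genes tested, 35.7% rose and 22.8% fell. Tagln is absent from these counts because it had no window. The Myl9 call was lost in 2 of 15 other settings, and the dimmest Acta2 probe set fell. Whether the changes go with these elements was not tested.

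Of 12 further components of the smooth muscle contractile apparatus, 2 rose, 3 fell and 7 did not pass. Over all genes tested, 35.7% rose and 22.8% fell. The median change of the 12 was -0.017, against 0.046 over all genes. Csrp1, a LIM protein that binds the actin crosslinker alpha-actinin, rose most, by 0.99 (SE 0.052, adjusted p = 9.96e-09), from 10.82, 10.74 and 10.69 to 11.71, 11.68 and 11.82, and its second probe set rose too. The other that rose was Actg2, given above. The tropomyosin gene Tpm4 fell by 0.43 (SE 0.044, adjusted p = 3.06e-06), from 12.20, 12.11 and 12.06 to 11.71, 11.68 and 11.68. Synpo2, an actin-bundling protein of the Z-disc, fell by 0.20 (SE 0.033, adjusted p = 0.000187). These counts use the brightest probe set of each gene. Dimmer ones fell for Pdlim7 (1428319_at, -0.16, and 1443785_x_at, -0.22) and Tpm2 (1419739_at, -0.11), which were counted as not passing. Those of Cald1 and Tpm1 are given at the end.

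Pdlim5, a PDZ and LIM domain protein of the Z-disc and stress fibres, read in opposite directions by probe set. Its brightest, 1429783_at, by which it was counted as falling above, fell by 0.17 (SE 0.034, adjusted p = 0.00101) and 1421413_a_at by 0.13. The other 4 that were tested rose by 1.58 to 1.83. The brightest of these, 1427475_a_at, rose by 1.63 (SE 0.090, adjusted p = 1.55e-08).

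In the circuit of myosin light chain phosphorylation, 11 genes were tested, of which 10 did not pass, 1 fell and 0 rose, around a median change of -0.0028. Over all genes tested, 35.7% rose and 22.8% fell. These counts use the brightest probe set of each gene. Dimmer ones passed for Myl12a (1450013_at, -0.25), Myh9 (1420170_at, -0.32) and, upward, Ppp1r12a, given at the end. The light chain Myl6 changed by -0.16 (SE 0.055, adjusted p = 0.0280), from 11.71, 11.85 and 11.62 to 11.58, 11.52 and 11.60. That call was lost in 4 of 15 other settings, among them the fit without control replicate 2 (-0.096, adjusted p = 0.149) and the fit without shRNA replicate 2 (-0.14, adjusted p = 0.102). The inhibitor Ppp1r14a was too dim to be tested.

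Of 13 SRF and MRTF factors and common targets, 12 were tested, and 3 rose, 3 fell and 6 did not pass. Over all genes tested, 35.7% rose and 22.8% fell. The list's median change was -0.0022. Myocd, the myocardin coactivator of smooth and cardiac muscle, lay below the filter. Mrtfa rose by 0.39 (SE 0.050, adjusted p = 2.57e-05) and Mrtfb fell by 0.15 (SE 0.038, adjusted p = 0.00438). The main probe set of Srf did not pass (0.0024, SE 0.047, adjusted p = 0.971), and a dimmer one, 1418256_at, fell by 0.29 (SE 0.088, adjusted p = 0.0131). Actb and Ccn1 were also counted as not passing by their main probe sets. The Actb probe set that rose is given above. For Ccn1, 1416039_x_at rose by 0.13 (adjusted p = 0.0470). Its probe sets 1442340_x_at (-0.22, adjusted p = 0.0123) and 1457823_at (-0.22, adjusted p = 0.0164) fell.

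Among the targets in that list, Ccn2, a matricellular growth factor, fell most, by 0.83 (SE 0.044, adjusted p = 1.01e-08), from 12.46, 12.40 and 12.43 to 11.55, 11.57 and 11.67. Wdr1, a cofactor of actin filament disassembly, fell by 0.35 (SE 0.046, adjusted p = 3.63e-05). Tgfb1i1 (Hic-5), a focal adhesion adaptor, rose by 0.33 (SE 0.064, adjusted p = 0.000706). Ankrd1, a stretch-responsive muscle protein, had a change of 0.11 (adjusted p = 0.0204) that was lost in 7 of 15 other settings.

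Partners of vinculin at focal adhesions were tested with 20 genes, of which 4 rose, 8 fell and 8 did not pass. Over these 20 the median change was -0.065, against 0.046 over all genes, of which 35.7% rose and 22.8% fell. The counts rest on the brightest probe set of each gene, and dimmer ones passed for some genes counted as not passing. They rose for Actn1 (among them 1427385_s_at, 0.33) and fell for Itgb1 (1427771_x_at, -0.32) and Lpp (among them 1438271_at, -0.34). Those of Lims1 passed in both directions (among them 1418231_at, 0.21, and 1443947_at, -0.46). Tns1, tensin 1, which links integrins to actin, fell by 1.19 (SE 0.053, adjusted p = 3.03e-09), from 11.88, 12.01 and 12.06 to 10.77, 10.77 and 10.85, and all of its 3 probe sets fell. Tln1, talin 1, which binds vinculin directly, fell by 0.97 (SE 0.053, adjusted p = 1.52e-08), from 11.49, 11.56 and 11.69 to 10.64, 10.58 and 10.61, as did its other tested probe set. Vasp, an actin polymerisation factor, fell by 0.29 (SE 0.038, adjusted p = 3.13e-05).

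Flna, filamin A, a crosslinker of actin, rose by 0.25 (SE 0.037, adjusted p = 7.09e-05), and Parva, parvin, by 0.22 (SE 0.039, adjusted p = 0.00038). Ilk, the kinase-like partner of parvin, had a change of 0.11 (adjusted p = 0.0267) that was lost in 7 of 15 other settings.

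**Figure D4:**
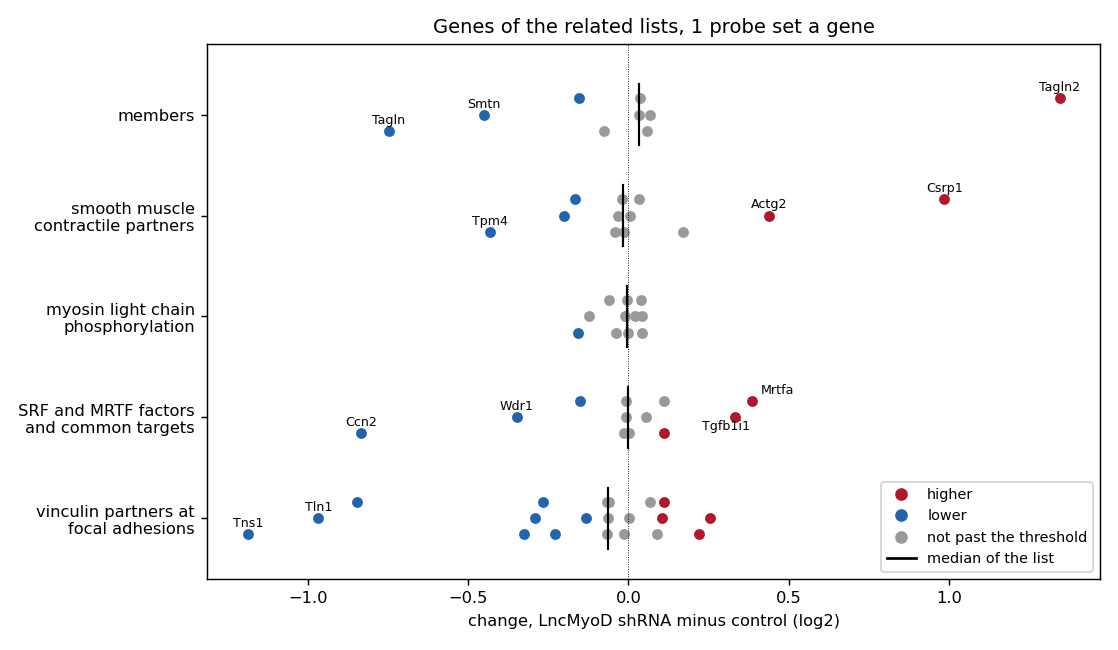
Change in log2 signal, LncMyoD shRNA minus control (x axis), of every tested gene of the set and of 4 related lists (y axis), 1 probe set a gene, red for higher, blue for lower and grey for not past the threshold, with a black bar at each median. Tagln2 and Csrp1 lie farthest to the right and Tns1 and Tln1 farthest to the left, while the medians of the 4 lists run from -0.065 to -0.0022.

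The cell type named in the labels was checked against its markers. All 10 skeletal muscle markers were bright enough to be tested, and Myod1, the myoblast transcription factor, read 13.80 in controls and 13.82 with the shRNA. Of these markers 3 rose (Myf5, Pax7 and Cdh15), 3 fell (Myog, Acta1 and Ckm) and 4 did not pass (Myod1, Des, Mylpf and Tnnt3). Over all genes tested, 35.7% rose and 22.8% fell. Ckm, muscle creatine kinase, fell from 10.53 to 9.11 and Pax7, a factor of muscle stem cells, rose from 11.40 to 12.06. Myog, Acta1, Mylpf and Tnnt3 changed by -0.13, -0.088, 0.018 and 0.019, with group means between 13.98 and 14.49. Those means lie near the highest signal on any array, 14.64. Over the whole array the median size of a change was 0.072 for means from 13 to 15. The part of signal brightness in these small changes was not tested. The groups differed in signal for some markers of the muscle lineage and little for others, and the stage of the cells was not tested. In bulk RNA fewer cells of a type and less RNA per cell cannot be told apart.

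Cells other than myoblasts can also express Acta2, Tagln and Cnn1, so markers of such cells were read on the same arrays, each list as its summed linear signal. Of 4 smooth muscle markers, Myh11, Actg2 and Lmod1 were tested and 1, Actg2, rose, and Myocd was too dim. Their sums were 1878 to 1910 in controls and 1938 to 2034 in shRNA samples. Of 6 pericyte markers, 5 were tested and 1, the receptor Notch3, rose by 0.41 (adjusted p = 3.28e-05), while the defining marker Rgs5 was too dim. The pericyte sums were 2390 to 2457 in controls and 2843 to 2895 in shRNA samples. Notch3 is the brightest of that list, and Pdgfrb, Cspg4, Abcc9 and Kcnj8 did not pass. Of 8 fibroblast markers, 4 were tested, with Pdgfra up by 0.89 and Col1a1, Col1a2 and Col3a1 down by 0.42, 0.42 and 0.51, and Dcn, Lum, Thy1 and Postn were too dim. The fibroblast sums were 2394 to 2712 in controls and 1858 to 1997 in shRNA samples. All 5 endothelial markers and the 3 adipocyte markers with a probe set were too dim. Of 5 leukocyte markers 3 were tested: Cd68 rose by 0.33, and Laptm5 (-0.26) and Tyrobp (-0.16) did not pass. The leukocyte sums were 389 to 442 in controls and 373 to 437 in shRNA samples. Each sum is weighted toward its brightest probe set and gives no amount of cells. That probe set was of Lmod1 for smooth muscle, Notch3 for pericytes and Col3a1 for fibroblasts. The part of other cell types in the changes of Tagln, Smtn and Acta2 was not tested.

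RNA integrity, read as the log2 ratio of 3′ to 5′ control probe sets, was 0.51 ± 0.018 in controls and 0.55 ± 0.017 in shRNA samples for actin, and 0.14 ± 0.045 and 0.23 ± 0.038 for GAPDH. Both differences, 0.044 and 0.085, had p = 0.1 in the exact permutation test, the smallest possible with 3 arrays a group. Their part in the changes of Tagln, Tagln2 and Smtn was not tested.

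The genes whose profile over the 6 arrays lay nearest to that of a member were found by the root mean square distance of log2 signals, each taken relative to its control mean, among 12356 other genes. For the main probe set of Acta2 they were Man2b2 (distance 0.0063), Kdelr2 (0.0083), Atic (0.0086), Uqcrh (0.010) and Rps10 (0.011). None of these passed the test, which their choice by nearness to an uncalled profile made likely. For Tagln they were Mrps28 (distance 0.035, change -0.72), Ikbkg (0.039, -0.75), Ftsj1 (0.040, -0.75), Fdft1 (0.041, -0.77) and Prelid2 (0.041, -0.73). The changes are like that of Tagln because the genes were chosen so. None of the genes named for either member belongs to the actin or smooth muscle lists, which says little with so many genes compared.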

How the data were processed

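The table the authors deposited gives, for each array, a normalized log2 signal of every probe set. Its log2 scale was inferred from a range of 4.48 to 14.64, and all 6 arrays had a median of 7.23. PLIER and MAS5 are named in the submitters' processing notes without a role, and the sources used here do not give versions, background correction or offset. No scan date or batch was given, 0 columns were left without a sample, and the number of arrays, 3 a group, limits the precision.

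Groups and replicate numbers came from the labels. Gene names came from the platform annotation, in which 34958 probe sets had 1 symbol, 932 several and 9211 were unnamed here. Gene identifiers of 34754, with those of all 10 genes, were found in a RefSeq table of GRCm38.p6, and 0 symbols differed. After 64 control probe sets, the 40% with the lowest mean (18015) were left out, which kept 27022 with a mean of 6.50 or more. Differences, shRNA minus control, were fitted with limma 3.58.1 in R 4.3.3 (lmFit, eBayes with a trend, no covariates). P-values were adjusted by Benjamini-Hochberg over all tested probe sets. A gene stands by its brightest probe set, _x_at only where it has no other. Related lists, markers and alternatives were written down with earlier results of these data known, as were the members, so their counts are descriptions. All members are named, and from each related list up to 3 genes with the smallest p in each direction. Srf and the probe sets that disagree within a gene were named after their values were seen. On simulated data with 27022 probe sets the calculation recovered 60% of 100 probe sets changed by 0.5 and 93% of 100 changed by 1, with 0% false among those called. Only these probe sets were changed there, whereas 53.9% of those tested passed in the data. The simulation checks the calculation and does not give the recovery or the false share of the calls reported here.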

Additional observations from a re-analysis of the deposited data

How the results depend on the processing

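The 22 probe sets were refitted in 15 other ways: 2 other filters, 3 other scalings, an offset of 16 taken off, 2 other variance models, each array left out in turn, and the replicate number as a block. Tagln, Smtn, 1456658_at of Acta2 and both tested probe sets of Tagln2 kept direction and call in all 15, with changes of -0.81 to -0.72, -0.52 to -0.42, -0.63 to -0.43, 1.27 to 1.47 and 1.37 to 1.52. The count of probe sets that rose was 2, or 3 under quantile normalization (Cnn2, 0.079, adjusted p = 0.0237) and without control replicate 1 (1416454_s_at of Acta2, 0.083, adjusted p = 0.0428). The count that fell was 4, or 3 without control replicate 2, without shRNA replicate 1 and at a threshold of 0.01, each time through Myl9. Centring each array on the median of its tested probe sets shifted changes by 0.064 and turned the sign of uncalled values near 0, such as 1416156_at of Vcl (-0.030). With the replicate block 2 rose and 4 fell. Arrays with the same number deviated together with correlations of -0.13, -0.062 and 0.031, so the numbers were not taken as pairs. With 3 arrays a group the permutation test of ratios could not pass in any of 10 other settings, so it says nothing about stability.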

Other observations

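Caldesmon and tropomyosin, which lie on the actin filament beside the calponins, also read differently by probe set, and these probe sets were chosen after their values were seen. Cald1 was tested with 5 probe sets. The brightest changed by -0.043 (limma adjusted p = 0.357), while 1424768_at fell by 0.15 (adjusted p = 0.0138) and 1433147_at by 0.55 (adjusted p = 0.00081). Tpm1 was tested with 4. The brightest changed by -0.015 (adjusted p = 0.717), 1423721_at rose by 0.17 (adjusted p = 0.00104) and 1456623_at by 0.26 (adjusted p = 0.000237), and 1447713_at fell by 0.24 (adjusted p = 0.0197). Ppp1r12a, the targeting subunit of the phosphatase that reverses the action of Mylk, changed by 0.043 in its brightest probe set (adjusted p = 0.466) and rose by 0.21 in 1437734_at (adjusted p = 0.000802) and by 0.38 in 1429487_at (adjusted p = 0.000835). The part of the transcript read by each probe set was not examined.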
